A study of Mus musculus with 10 samples.

Results

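The 10 genes described here are the mouse cyclins Ccna2, Ccnb1, Ccnd1, Ccnd2, Ccnd3 and Ccne1 and the cyclin-dependent kinases (CDKs) Cdk1, Cdk2, Cdk4 and Cdk6. They were chosen by name, through the GENCODE M21 symbols of the listed transcripts, and each is represented by 1 of the 15269 transcripts in the files. Ribosome footprints, the stretches of mRNA that a ribosome shields from RNAse, were sequenced from CGR8, a feeder-free mouse embryonic stem cell line. All cells received an equal amount of DMSO. The control had no inhibitor, and the other groups had 1 µM DMDA-PatA for 10 min, 2 µg/ml harringtonine for 10 min or 0.2 mg/ml puromycin for 20 min. Whole transcriptome reads came from untreated cells, by a protocol that sets aside part of a lysate for total RNA before RNAse is added. Each of these groups had 2 libraries.

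DMDA-PatA (desmethyl, desamino-pateamine A) targets eIF4A, the RNA helicase that prepares the 5' UTR for the initiating ribosome. Harringtonine blocks elongation, with a preference for ribosomes that have just started, and lets those further along run off. The paper holds that this preference is partial and not specific for start sites. Puromycin enters the growing chain in place of an aminoacyl-tRNA and releases it. In the cell cycle a CDK is active only when bound to a cyclin. The D-type cyclins pair with Cdk4 and Cdk6 and phosphorylate Rb in G1, cyclin E1 with Cdk2 leads into S phase, cyclin A2 binds Cdk2 and Cdk1, and cyclin B1 with Cdk1 drives mitosis. Embryonic stem cells are known for a fast cycle with a short G1.

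The start codon of each member is shown because both the 5' UTR before it and the coding sequence after it were measured. The lines give the 12 nt before the ATG, the ATG in capitals and the 3 nt after it, read from the GENCODE M21 transcripts on GRCm38.
Ccna2: accggagccgcgATGccg
Ccnb1: tttggaggagccATGgcg
Ccnd1: gacggccgcgccATGgaa
Ccnd2: ggccggctggctATGgag
Ccnd3: agccatcgcaggATGgag
Ccne1: aagtcctgagccATGcca
Cdk1: tgttgagtaactATGgaa
Cdk2: cactagcgctccATGgag
Cdk4: cctgcttcgagaATGgct
Cdk6: cctgaagccagcATGgag
Counting the A of the ATG as position 1, Cdk2 was the member without a purine at position -3, and Ccna2 and Ccne1 were those without a G at position 4. Of 14060 coding transcripts with a start codon found in M21, 85.7% had the purine, 52.2% the G and 44.7% both. For Ccnd2 and Cdk2 the listed positions differed from the M21 transcript, and the context was taken from its coding sequence of the same length.

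The members' 5' UTRs had between 129 nt (Cdk1) and 327 nt (Ccna2, Cdk6), against a median of 164 nt over all listed coding transcripts. Their GC content ran from 56.7% in Ccnd3 to 74.4% in Ccne1, and the median of the transcripts whose positions matched M21 was 63.9%. In the last 100 nt of the 5' UTR no member had 4 CGG triplets in a row, searched on the transcript strand, and 1.08% of 8050 such windows did. An ATG upstream of the start codon was found 6 times in the 5' UTR of Ccnd3, 2 times in Cdk4 and 1 time each in Ccnb1, Ccne1 and Cdk6.

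Some listed transcripts limit what their values cover. Reads that matched the genome more than once were left out by the authors, and 91.8% of the 30-nt stretches of the Ccnb1 coding sequence (ENSMUST00000072119) had a copy elsewhere in GRCm38, so its values rest on the small rest of the coding sequence and are uncertain. The share was 35.3% for Ccnd3 (ENSMUST00000183177), 16.1% for Cdk6 (ENSMUST00000165117), 4.72% for Cdk4 and 0.232% for Cdk1, and 0 for the others. The listed Cdk4 transcript (ENSMUST00000120226) has a coding sequence of 474 nt, all of which lies within the 909 nt of transcript Cdk4-201, and 64 nt of its 67-nt 3' UTR are coding there. That 3' UTR had 138 and 161 reads in the control footprint libraries. From which transcript the reads came was not tested, and the Cdk4 values may cover only a part of a coding sequence. Of the 268 nt of the Ccnd3 5' UTR, 111 nt are coding in other transcripts of the gene.

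On GRCm38 the Ccna2 transcript (ENSMUST00000029270) lies on the minus strand of chromosome 3 from 36564865 to 36572150 and has 8 exons. The Ccne1 transcript (ENSMUST00000108023) lies on the minus strand of chromosome 7 from 38097984 to 38107534, with its start codon in exon 2 of 12. Ccnd1 (ENSMUST00000093962) is on the same chromosome and strand, from 144929931 to 144939869, and has 5 exons. Cdk4 lies on the plus strand of chromosome 10 from 127063603 to 127067002 with its start codon in exon 2 of 7, and Cdk1 (ENSMUST00000020099) on the minus strand of the same chromosome from 69335146 to 69352938 with its start codon in exon 2 of 8.

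The depth differed between groups. Control libraries held 9104220 to 10614247 reads on coding sequences and transcriptome libraries 16649611 to 38046741. DMDA-PatA libraries held 618334 to 748665, harringtonine libraries 1672087 to 1944784 and puromycin libraries 872713 to 1547460. Of the 10 members, 9 had the higher DMDA-PatA value in replicate 2 and 9 the higher harringtonine value in replicate 1. Most well expressed coding transcripts leaned the same way (median of replicate 2 over replicate 1 of 1.50 and 0.572). With puromycin only Ccne1 of the members had the higher value in replicate 2, while the median of the well expressed transcripts was 1.04. In the transcriptome libraries the 6 pluripotency markers had 913 to 10409 reads per kb, and 10 markers of other cell types had a median of 67.3, with Col1a1, a fibrillar collagen, at 30848 and T, a mesoderm factor, at 1902, above the pluripotency marker Klf4 at 913. The part of such levels in the results below was not tested.

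In control cells the members fell into an upper and a lower group by footprints per kb of coding sequence. Cdk4 had 5172 ± 783 normalized footprints per kb (SD, n = 2), Cdk1 4067 ± 490 and Ccnd1 3641 ± 60.3. The mitotic and S phase cyclin Ccna2 had 2498 ± 140 and Ccne1 2467 ± 187, and the libraries of this pair overlapped. Cdk2 followed at 1010 ± 128, Ccnd3 at 728 ± 36.1 and Ccnd2 at 379 ± 25.2. Cdk6 had 291 ± 11.4 and Ccnb1, whose value rests on few positions, 217 ± 56.9. The differences between Cdk4 and Cdk1 and between Cdk1 and Ccnd1 were smaller than the sum of their SDs, so the order of these neighbours is not set by these data. Of the D-type cyclins, Ccnd1 was thus the highest and Ccnd2 the lowest, and of their partner kinases Cdk4 was far above Cdk6.

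The transcriptome reads gave another order. Cdk4 led with 6406 ± 350 reads per kb (SD, n = 2), followed by Ccne1 with 4725 ± 226, Ccna2 with 4629 ± 118 and Cdk1 with 4047 ± 130. Ccnd1 had 2873 ± 410 and Cdk2 1935 ± 128. The remaining members were Ccnd2 at 877 ± 62.1, Ccnd3 at 747 ± 110, Cdk6 at 569 ± 39.5 and Ccnb1 at 227 ± 21.6 reads per kb. Ccnd1 stood below Ccna2 and Ccne1 here and above both in footprints.

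The question of how many footprints a coding sequence carries for its mRNA was put to control footprints and transcriptome reads, each relative to its library total. By this measure 9 of the 10 members were higher in footprints, where 29.7% of all 14017 features were (edgeR's quasi-likelihood test, Benjamini-Hochberg adjusted p under 0.05). Ccnd1 had the largest value of the members, with 3184.2 and 3259.7 normalized footprints against 2798.6 and 2286.0 transcriptome reads. Its log2 ratio was 1.66 (SE 0.11, adjusted p = 1.57e-08 in edgeR). Cdk1 (1.31), Ccnd3 (1.28), Ccnb1 (1.21) and Cdk4 (0.99) formed the next set of log2 ratios. Of the 30-nt stretches of Ccnb1 and Ccnd3, 91.8% and 35.3% had a copy elsewhere. Whether footprints and transcriptome reads lost equal parts to such copies was not tested.

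Ccna2 had a log2 ratio of 0.42, Ccne1 and Cdk2 of 0.37 each and Cdk6 of 0.35. Ccnd2, with 313.6 and 344.5 footprints against 798.3 and 722.2 transcriptome reads, had a log2 ratio of 0.11 (SE 0.13, adjusted p = 0.442 in edgeR) and did not pass. The 3 D-type cyclins, which share partners, therefore spanned the range of the members. The median of the members was 0.70 and that of all features -0.19. Cdk6 did not pass the DESeq2 Wald test (adjusted p = 0.0754), nor in edgeR without control footprint replicate 2 (0.23) or without transcriptome replicate 1 (0.39) or 2 (0.31), and Cdk2 did not pass without transcriptome replicate 2 (0.33, adjusted p = 0.0581).

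**Figure D1:**
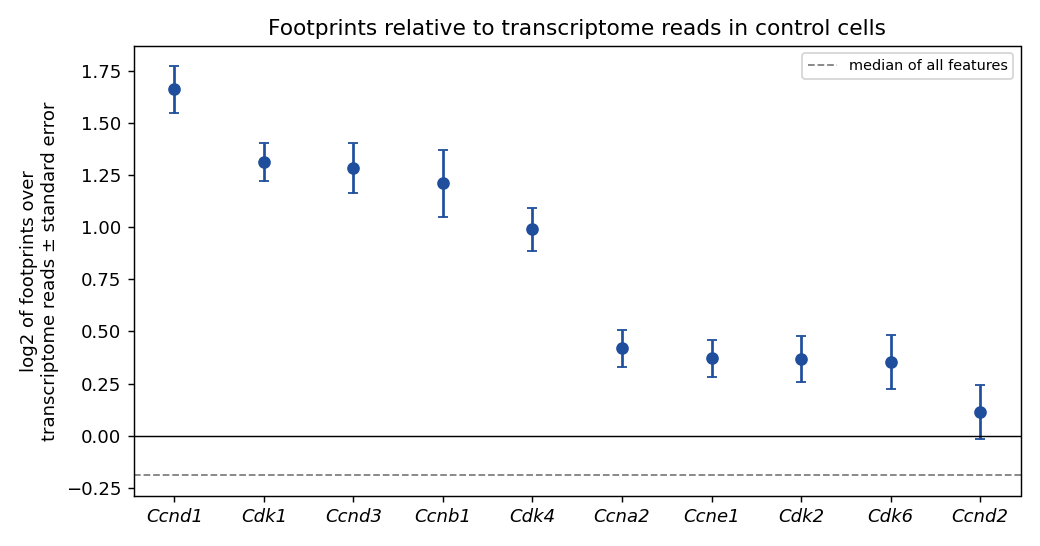
Log2 of control footprints over transcriptome reads, each per library total, for the 10 members, as edgeR estimates with standard errors. The dashed line is the median of all features at -0.19, and all members lie above it, from 0.11 for Ccnd2 to 1.66 for Ccnd1.

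DMDA-PatA lowered the coding sequence footprints of every member. All 10 passed the test as lower, and so did 99.3% of the 12499 features tested, so the count itself does not set the members apart. Their log2 fold changes ran from -3.86 in Cdk4 to -6.07 in Ccne1, with a median of -5.28 against -4.32 over all features. No transcriptome library of drug-treated cells was analysed here, and in bulk libraries fewer ribosomes per mRNA, less mRNA and fewer cells of a kind cannot be told apart.

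The S phase cyclins E1 and A2 and the mitotic cyclin B1 had the largest decreases of the members, and the 3 differed from each other by less than their SEs. Ccne1 had 3181.8 and 2858.1 normalized footprints in control cells and 34.7 and 55.2 after DMDA-PatA, a 67.2-fold inhibition (log2 fold change -6.07, SE 0.55, adjusted p = 2.11e-26 in edgeR). Ccna2 had 3287.9 and 3037.6 in the control and 37.9 and 62.5 with the drug, a 63.0-fold inhibition. Ccnb1 had 331.3 and 227.5 against 5.7 and 3.2, a 62.6-fold inhibition that rests on 9 and 4 reads. Of the Ccnb1 footprint libraries only the control reached the 10 reads required for a test. Its calls as lower with the drugs therefore give no support of their own. In each of these genes the control libraries lay far above the drug libraries, without overlap. How many of all features separate in this way was not counted.

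The D-type cyclins followed in the order Ccnd1, Ccnd3 and Ccnd2. Ccnd1 went from 3184.2 and 3259.7 to 56.2 and 117.7, a 37.1-fold inhibition. Ccnd3 went from 660.2 and 615.5 to 15.8 and 24.4, a 31.8-fold inhibition. Ccnd2 went from 313.6 and 344.5 to 8.8 and 17.9, a 24.7-fold inhibition on 14 and 22 reads. The log2 fold changes of the 3 genes were -5.22, -5.00 and -4.64, with SEs of 0.51 to 0.53, so they differed by about their errors.

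Among the kinases, Cdk6 and Cdk1 were inhibited more than Cdk2 and Cdk4. Cdk6 had 277.0 and 292.8 footprints in control cells against 6.3 and 6.5, a 44.5-fold inhibition on 10 and 8 reads. Cdk1 had 3932.8 and 3315.0 against 65.7 and 112.0, a 40.8-fold inhibition. Cdk2 had 984.4 and 822.2 against 32.2 and 41.4, a 24.5-fold inhibition. Cdk4, a partner of the D-type cyclins, kept the most. It had 2713.8 and 2189.2 in the control and 127.5 and 210.2 with the drug, a 14.5-fold inhibition (log2 fold change -3.86, SE 0.50, adjusted p = 1.31e-14 in edgeR).

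These decreases are on the scale of the spike-in RNA. TMM normalization takes out a change common to all transcripts and moved the median of all features from -4.32 to -0.12. With TMM 7 members were lower, beside 2945 of 12499 features. Cdk2 (-0.38) and Ccnd2 (-0.45) did not pass, and Cdk4 lay above 0 (0.35, adjusted p = 0.18 in edgeR). Ccne1 (-1.86), Ccna2 (-1.77) and Ccnb1 (-1.64) had the lowest log2 values of the members on that scale.

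**Figure D2:**
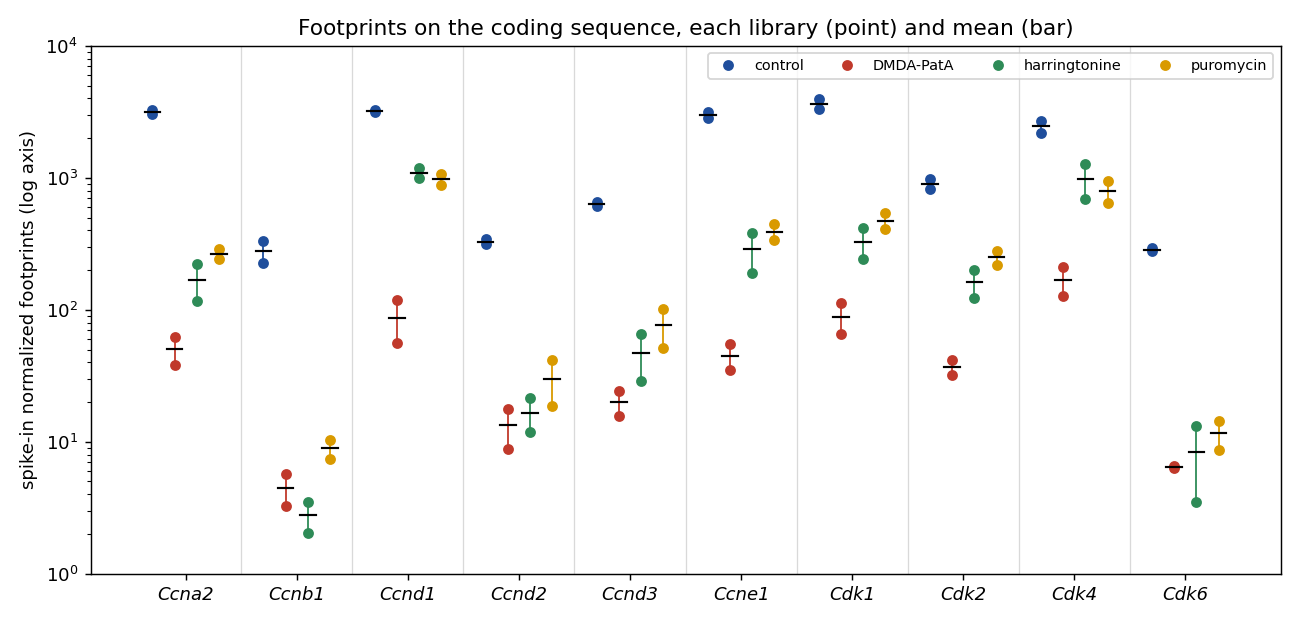
Spike-in normalized footprints on the coding sequence of each member on a log axis, with a point for each of the 2 libraries per group and a bar at their mean. In all 10 genes the control points lie above every drug point. Of all features, 99.3%, 92.9% and 90.1% were called lower with DMDA-PatA, harringtonine and puromycin, and how many separate in this way was not counted. With DMDA-PatA the values run from 3.2 in Ccnb1 to 210.2 in Cdk4.

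Harringtonine also lowered all 10 members, beside 92.9% of all features, and the members differed more widely than with DMDA-PatA. Ccnb1 and Cdk6 kept the fewest. Ccnb1 had 2.0 and 3.5 normalized footprints with harringtonine, from 2 and 5 reads, a 101-fold inhibition. Cdk6 had 13.2 and 3.5, a 34.1-fold inhibition on 13 and 5 reads. Ccnd2, with 21.3 and 11.9, and Ccna2, with 222.2 and 116.9, were inhibited 19.8-fold and 18.7-fold.

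Ccnd3, Cdk1 and Ccne1 were intermediate. Ccnd3 had 65.9 and 28.7 with harringtonine, a 13.5-fold inhibition. Cdk1 had 414.0 and 243.6, an 11.0-fold inhibition, and Ccne1 382.5 and 190.4, a 10.5-fold inhibition. Cdk2 kept 201.9 and 122.5, a 5.57-fold inhibition.

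Cyclin D1 and its partner Cdk4 kept the most footprints. Ccnd1 had 1186.1 and 998.1 with harringtonine, a 2.95-fold inhibition (log2 fold change -1.56, SE 0.45, adjusted p = 0.000674 in edgeR). Cdk4 had 1265.2 and 693.0, a 2.50-fold inhibition (log2 fold change -1.32, SE 0.45, adjusted p = 0.00353 in edgeR). The Cdk4 call was lost without control replicate 1 (log2 fold change -1.16, adjusted p = 0.0718 in edgeR). TMM moved the median of all features from -2.97 to -0.12. With TMM 7 members were lower, beside 3749 of 12499 features. Ccnd1 (1.35) and Cdk4 (1.51) were higher than in the control, and the share of all features higher was not counted. Cdk2 lay at 0.38 without passing (adjusted p = 0.089 in edgeR). These 3 members lay above the median of all features under both scalings.

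Puromycin lowered all 10 members too, where 90.1% of all features were lower. Ccnb1 had 10.3 and 7.5 normalized footprints with puromycin, a 31.4-fold inhibition on 5 and 6 reads. Cdk6 had 14.5 and 8.7, a 24.6-fold inhibition on 7 and 7 reads. Ccna2 had 289.5 and 241.2, an 11.9-fold inhibition, and Ccnd2 41.4 and 18.7, an 11.0-fold inhibition. The next were Ccnd3 (101.3 and 51.0), Ccne1 (339.1 and 443.9) and Cdk1 (537.7 and 409.1), inhibited 8.38-fold, 7.71-fold and 7.66-fold.

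The same 3 genes kept the most as with harringtonine. Cdk2 had 281.2 and 218.9 with puromycin, a 3.61-fold inhibition, Ccnd1 1067.1 and 882.9, a 3.30-fold inhibition, and Cdk4 949.2 and 645.4, a 3.07-fold inhibition. The median log2 fold change of the members was -3.02 with puromycin and -3.62 with harringtonine, against -2.48 and -2.97 over all features. With TMM, which moved the puromycin median to -0.04, 7 members were lower, beside 3112 of 12499 features. Ccnd1 (0.72), Cdk2 (0.59) and Cdk4 (0.84) were higher, and the share of all features higher was not counted. The drug comparisons share the control libraries, so a like order of the members under the drugs is no independent observation.

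**Figure D3:**
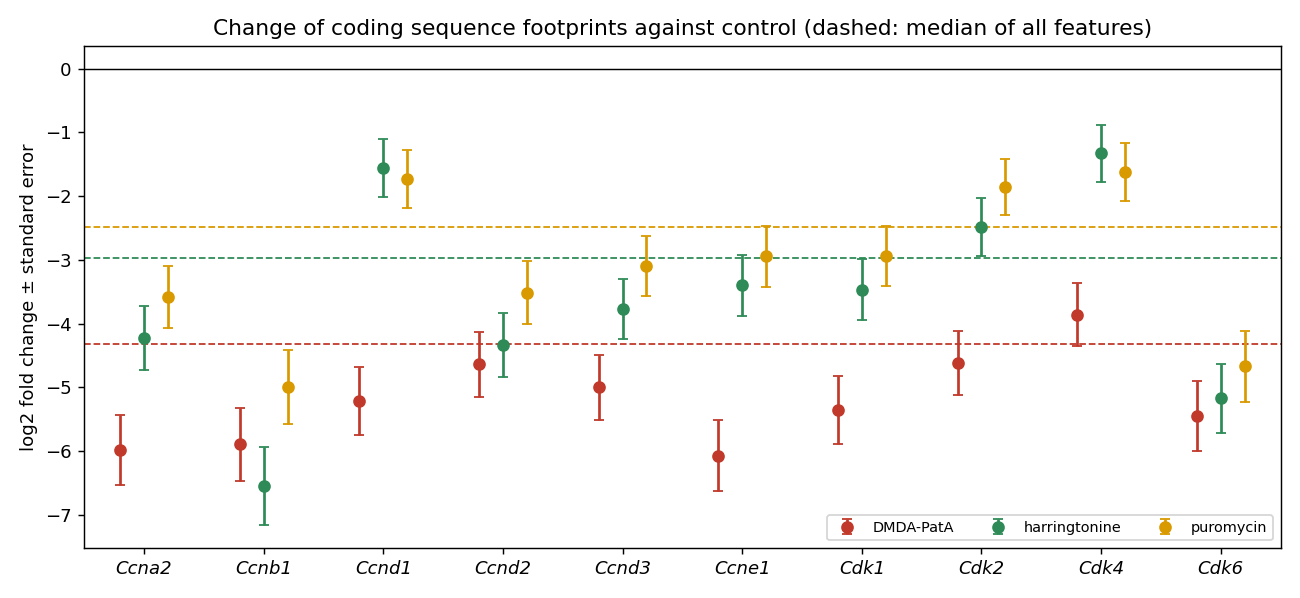
Log2 fold change of coding sequence footprints against control for each member and drug, as edgeR estimates with standard errors on the spike-in scale, and the median of all features for each drug as a dashed line in its colour (-4.32, -2.97 and -2.48). Ccnd1, Cdk2 and Cdk4 lie above the harringtonine and puromycin lines, Cdk4 alone lies above the DMDA-PatA line, and the separation from 0 of these genes depends on the scaling as given in the text.

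The place of a member among other genes was read with and without regard to length. Among 8461 well expressed coding transcripts, 92.9% were more inhibited by harringtonine than Cdk4. Among the 536 of these with a coding sequence within 20% of the listed 474 nt, 69.4% were. For Cdk4 with DMDA-PatA these shares were 73.2% of all and 53.2% of the like-length transcripts, and with puromycin 83.9% and 41.0%. With puromycin most transcripts of the listed length were thus less inhibited. The listed Cdk4 coding sequence lies within the 909 nt of Cdk4-201, so the length class that applies to its reads is uncertain and was not tested. For Ccnd1 with harringtonine they were 90.0% of all and 88.4% of 1363 like-length transcripts. At the other end, 0.248% of all and 0.362% of like-length transcripts were more inhibited by harringtonine than Ccnb1, and 2.22% and 1.67% than Cdk6. With puromycin these shares were 1.383% and 0.827% for Ccnb1 and 2.53% and 1.03% for Cdk6, and with DMDA-PatA 5.28% and 5.38% for Ccne1. Among transcripts with a 5' UTR within 20% of the member's listed length, 62.2% were more inhibited by DMDA-PatA than Ccnd2 and 60.5% than Cdk2. Of all well expressed transcripts 44.2% and 45.1% were. This match raised the share of the other members too, except Cdk1 (19.2% to 12.9%) and Ccnb1 (7.66% to 6.99%). These positions are descriptions of the pooled libraries without a test. Those of Ccnb1 rest on 9 and 4 reads with DMDA-PatA, 2 and 5 with harringtonine and 5 and 6 with puromycin. Those of Cdk6 rest on 13 and 5 reads with harringtonine and on 7 and 7 with puromycin.

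Between the drugs, given at different doses and times, DMDA-PatA left fewer coding sequence footprints than harringtonine on 7 of the 10 members, where 52.8% of all features were lower. The largest difference was in Ccnd1, with 56.2 and 117.7 normalized footprints against 1186.1 and 998.1 (log2 difference -3.66, SE 0.50, adjusted p = 2.04e-11 in edgeR). Ccne1 (-2.67), Cdk4 (-2.54), Cdk2 (-2.14), Cdk1 (-1.89), Ccna2 (-1.76) and Ccnd3 (-1.22) were also lower. The call for Ccnd3 (adjusted p = 0.0247 in edgeR) was lost under several alternatives, among them each control library left out (log2 difference -1.23 in both cases), replicate 1 of harringtonine left out (-0.53) and replicate 1 of DMDA-PatA left out (-0.93).

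Ccnb1, Cdk6 and Ccnd2, which harringtonine had inhibited most, did not pass. Their log2 differences were 0.65 (95% interval -0.90 to 2.20), -0.28 (-1.54 to 0.98) and -0.31 (-1.36 to 0.74). These intervals are wide, and the Ccnb1 values rest on at most 9 reads a library. With TMM, which moved the median of all features from -1.36 to -0.01, 5 members were lower, beside 2248 of 12499 features. Ccnb1 was higher (1.99), and the share of all features higher was not counted.

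Against puromycin, DMDA-PatA left fewer footprints on the same 7 members, where 67.4% of all features were lower. Ccnd1 (-3.49) and Ccne1 (-3.13) had the largest log2 differences, and Cdk2 (-2.76), Cdk1 (-2.41), Ccna2 (-2.40), Cdk4 (-2.24) and Ccnd3 (-1.90) followed. Ccnd2 (-1.13, adjusted p = 0.0561 in edgeR), Ccnb1 (-0.90) and Cdk6 (-0.78) did not pass. The call for Ccnd3 was lost without puromycin replicate 1 (-1.35), and Ccnd2 passed without either harringtonine library (-1.11 in both cases), without DMDA-PatA replicate 2 (-1.68) or without puromycin replicate 2 (-1.65). With TMM 5 members were lower, beside 2393 of 12499 features.

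Harringtonine and puromycin did not differ on any member at the threshold, where 9.94% of all features were lower with harringtonine. By an unadjusted p under 0.05, 3001 of the 12499 features differed. The log2 differences of the members ran from -1.55 in Ccnb1 (95% interval -3.15 to 0.05) to 0.30 in Cdk4 (-0.57 to 1.17). This comparison depends on the level of the harringtonine libraries. With the size factors of the DMDA-PatA and harringtonine libraries exchanged, 4694 of the 12499 features were lower with harringtonine, against 1243 before. Without harringtonine replicate 1, the library with the higher values, 4 members (Ccna2, Ccnd3, Ccne1 and Cdk2) were lower than with puromycin, and with the size factors of the DMDA-PatA and harringtonine libraries exchanged 6 were, while with TMM Ccnd1 (0.62) and Cdk4 (0.68) were higher.

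On the 5' UTR the members parted. Of the 9 members with enough reads for a test, harringtonine raised 6, beside 35.1% of all 6647 features, and lowered none, beside 5.21%. Ccne1 changed most, from 4.7 and 9.1 normalized footprints in the control to 193.8 and 165.9 with harringtonine (log2 fold change 4.65, SE 0.60, adjusted p = 2.47e-12 in edgeR). Its control values rest on 4 and 10 reads. Without the DMDA-PatA and harringtonine libraries, where it was called higher, it would not have had enough reads for a test. Its calls as higher on the 5' UTR therefore give no support of their own. Ccna2 rose from 36.5 and 33.5 to 363.2 and 267.4 (log2 fold change 3.17, SE 0.50, adjusted p = 1.66e-08 in edgeR). In both S phase cyclins the groups were far apart.

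Cdk6 rose from 10.6 and 16.3 to 59.9 and 37.1 and Ccnd1 from 43.6 and 54.4 to 189.7 and 141.4, with log2 fold changes of 1.81 and 1.75. Ccnd2 rose from 57.8 and 59.8 to 252.6 and 134.4 and Ccnd3 from 38.9 and 25.4 to 104.5 and 49.0, with log2 fold changes of 1.71 and 1.25. All 3 D-type cyclins were thus among the 6, with adjusted p of 0.00161, 0.00159 and 0.0366 in edgeR. The Ccnd3 call was lost with the DESeq2 Wald test (adjusted p = 0.0516), with TMM (log2 fold change 0.47) and without either control library (0.97 and 1.58), either puromycin library (1.25 in both cases) or harringtonine replicate 1 (0.62), among other alternatives. Without control replicate 1 Ccnd1 (1.60) and Cdk6 (1.56), without control replicate 2 Ccnd2 (1.74) and without harringtonine replicate 1 Ccnd2 (1.19) and Cdk6 (1.44) did not pass.

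Cdk1, Cdk2 and Cdk4 were not among the 6. Cdk2 had 99.03 and 68.9 footprints on the 5' UTR in the control and 184.7 and 131.6 with harringtonine, a log2 fold change of 0.91 (95% interval 0.01 to 1.82, adjusted p = 0.0975 in edgeR). Cdk1 had 37.7 and 40.8 against 59.9 and 25.9, and Cdk4 588.3 and 376.2 against 589.5 and 426.3. The harringtonine libraries overlapped the control in Cdk4 and enclosed it in Cdk1, and with TMM their log2 fold changes turned from 0.11 and 0.07 to -0.69 and -0.66 without passing. Cdk4 held the most 5' UTR footprints of the members in the control.

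With DMDA-PatA, 2 members were higher on the 5' UTR and 1 was lower, beside 14.7% and 29.0% of all features. Ccne1 had 13.9 and 39.8 (log2 fold change 1.89, SE 0.61, adjusted p = 0.00653 in edgeR) and Ccna2 61.9 and 114.4 (1.33, SE 0.48, adjusted p = 0.0177 in edgeR). Cdk4 had 145.2 and 241.1 (log2 fold change -1.32, SE 0.44, adjusted p = 0.00941 in edgeR). The drug libraries did not overlap the control in any of the 3 genes, and how many of all features separate in this way was not counted. For Ccne1 the control had 4 and 10 reads, and the gene reached a test only through the DMDA-PatA and harringtonine libraries. Its call as higher therefore gives no support of its own. Each call depended on single libraries. Without control replicate 1 none of the 3 passed (Ccne1 1.53, Ccna2 1.39, Cdk4 -0.96), Ccna2 did not pass without control replicate 2 (1.26), Ccne1 and Ccna2 did not without DMDA-PatA replicate 2 (0.96 and 0.82), and Cdk4 did not without DMDA-PatA replicate 1.

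The other members did not pass with DMDA-PatA. Ccnd2 had 60.0 and 103.9 normalized footprints on the 5' UTR, Ccnd3 35.98 and 43.0 and Ccnd1 21.5 and 60.1. Cdk2 had 51.1 and 93.3, Cdk1 17.7 and 34.1 and Cdk6 6.9 and 13.0. Their log2 fold changes lay between -0.61 (Cdk1) and 0.47 (Ccnd2). The median over all features was -0.48, which TMM moved to 0.10. With TMM 4 members (Ccna2, Ccne1, Ccnd2 and Ccnd3) were higher and Cdk4 was lower, beside 1760 higher and 1500 lower of 6647 features.

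Puromycin changed no member's 5' UTR at the threshold, where 0.406% of all features were lower and 0.557% higher (772 of 6647 at an unadjusted p under 0.05). The log2 fold changes ran from -0.77 in Ccnd1 (35.2 and 23.6 footprints) to 1.01 in Ccnd2 (128.2 and 109.4), with 95% intervals of -1.81 to 0.27 and 0.07 to 1.94. Ccna2 had 57.9 and 52.2, Ccne1 4.1 and 11.2 and Cdk4 378.4 and 577.0. The 5' UTR of Ccnb1, where 67.6% of the 30-nt stretches had a copy elsewhere in the genome, had too few reads to be tested, and both transcriptome libraries had 0 reads there. Its control values were 1.2 and 0.9, and harringtonine gave 5.1 and 1.4 and puromycin 2.1 and 2.5. With DMDA-PatA it had 0 reads in both libraries, which at a limit of 3 reads allows up to 1.89 and 2.44 normalized footprints of uniquely matching reads and covers counting error only.

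**Figure D4:**
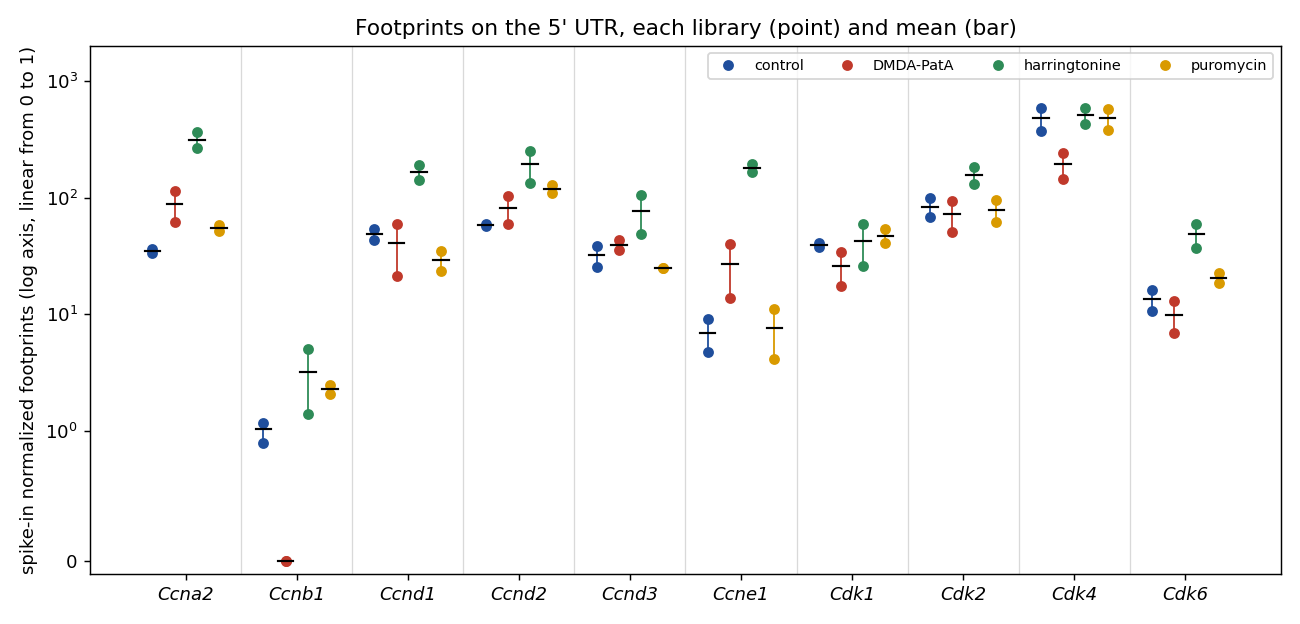
Spike-in normalized footprints on the 5' UTR of each member, with a point for each of the 2 libraries per group and a bar at their mean, on an axis that is linear from 0 to 1 and logarithmic above. The harringtonine points of Ccna2 (363.2 and 267.4) and Ccne1 (193.8 and 165.9) stand far above the control, while the harringtonine points enclose those of the control in Cdk1 and overlap them in Cdk4. On TMM scaling the Cdk1 and Cdk4 harringtonine estimates turn negative.

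The 5' UTR set against the coding sequence of the same library does not depend on the size factors. By this measure all 9 members tested shifted towards the 5' UTR with each drug, beside 93.6% (DMDA-PatA), 95.4% (harringtonine) and 78.3% (puromycin) of 6497 features. Of the reads on both regions of Ccna2, 1.10% ± 0.00509 (SD, n = 2) lay on the 5' UTR in control cells. DMDA-PatA brought this share to 63.4% ± 1.88, harringtonine to 65.8% ± 5.33 and puromycin to 17.2% ± 0.799. For Ccne1 the shares were 0.232% ± 0.119, 35.2% ± 9.41, 40.1% ± 9.15 and 1.83% ± 0.887. The log2 change of the 5' UTR to coding sequence ratio was largest in this pair, with 7.87 (Ccne1) and 7.29 (Ccna2) for DMDA-PatA and 8.11 and 7.44 for harringtonine. The Ccne1 changes rest on 4 and 10 control reads on the 5' UTR. Ccne1 was tested only through its DMDA-PatA and harringtonine reads there, so its calls with these drugs give no support of their own.

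The D-type cyclins differed in this share from the start. In the control it was 1.50% ± 0.205 in Ccnd1, 4.76% ± 1.13 in Ccnd3 and 15.2% ± 0.536 in Ccnd2. With harringtonine it reached 13.1% ± 0.978 in Ccnd1, 62.2% ± 1.24 in Ccnd3 and 92.0% ± 0.252 in Ccnd2. In Ccnd3, 35.3% of the 30-nt stretches of the coding sequence and 0% of those of the 5' UTR had a copy elsewhere. In addition, 111 nt of its 268-nt 5' UTR are coding in other transcripts. The Ccnd3 share may thus not be comparable with those of Ccnd1 and Ccnd2, which was not tested. Ccnd2 had the highest share of the members under every drug, with 86.2% ± 1.29 for DMDA-PatA and 80.5% ± 6.95 for puromycin. In Ccnd1 the share was 30.7% ± 4.35 with DMDA-PatA and 2.90% ± 0.412 with puromycin. The puromycin shift of Ccnd1 (log2 ratio change 0.96, adjusted p = 0.0307 in edgeR) was lost with limma on the log2 ratio (adjusted p = 0.0506), with no filter on low counts (adjusted p = 0.0637), without control replicate 1 (0.83) and without puromycin replicate 1 (0.82) or 2 (1.11), and that of Ccne1 (3.12) without puromycin replicate 2 (2.38, adjusted p = 0.164).

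Among the kinases, Cdk6 went from 4.48% ± 1.12 in control cells to 59.5% ± 10.1 under DMDA-PatA, 86.7% ± 6.67 under harringtonine and 64.6% ± 5.00 under puromycin. Cdk2 went from 8.44% ± 0.996 to 65.3% ± 5.60, 49.8% ± 2.84 and 23.7% ± 2.23. Cdk1 kept most of its reads on the coding sequence, with 1.08% ± 0.188 on the 5' UTR in control cells and 22.3% ± 1.50, 11.1% ± 2.14 and 9.10% ± 0.0178 under the drugs in the same order. In the control Cdk4 had a share of 16.2% ± 2.23, whose libraries overlapped those of Ccnd2 and lay above the other members, and it had 53.3% ± 0.125, 34.9% ± 4.46 and 37.9% ± 13.2 with the drugs. Its log2 ratio changes were the smallest of the members for DMDA-PatA (2.56) and harringtonine (1.47). The Cdk4 share counts coding sequence reads on the listed 474 nt alone, which lie within the 909 nt of Cdk4-201. It may therefore set a part of a coding sequence beside the whole ones of other members.

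**Figure D5:**
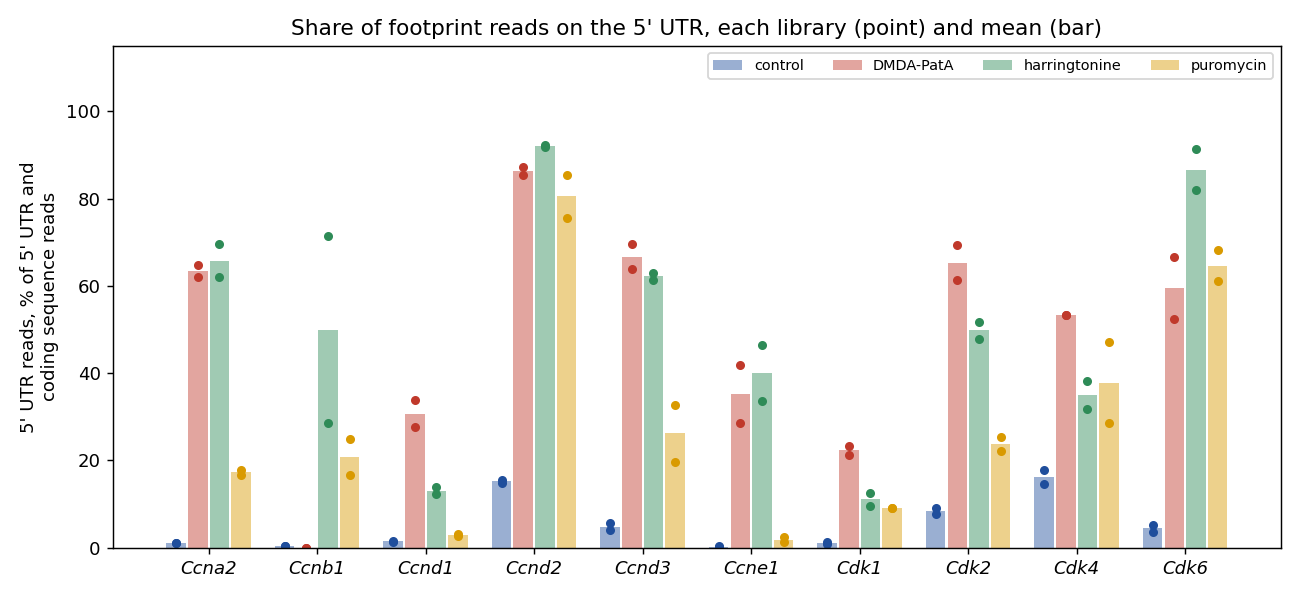
Reads on the 5' UTR as a percentage of the reads on 5' UTR and coding sequence, with a point for each library and a bar at the mean of the 2 libraries per group. Ccnd2 stands highest under every drug (86.2%, 92.0% and 80.5%), and the Ccnb1 shares rest on at most 9 reads in each drug library.

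The partners, regulators and targets of the members were taken as 64 further genes in 7 lists, of which 60 had enough reads. With DMDA-PatA all 60 were lower on the coding sequence (median log2 fold change -4.25), with harringtonine 57 (-2.80) and with puromycin 54 (-2.50). Of all features, 99.3%, 92.9% and 90.1% were lower, so these counts do not set the lists apart. None of the 60 was higher. Their medians lay closer to those of all features than the members' did. Cdc20, which activates the ubiquitin ligase that destroys cyclin B, and Ccnb2, the other B-type cyclin measured, were the lowest with DMDA-PatA, beside the CDK inhibitor Cdkn1c, with log2 fold changes of -6.25, -6.20 and -6.23. Cdk10 was at the other end with -1.77, and it did not pass with harringtonine (0.34, adjusted p = 0.472) or puromycin (0.87, adjusted p = 0.0709 in edgeR).

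With DMDA-PatA the 5 other cell cycle cyclins tested ran from Ccnb2 to Ccng2 (-2.82) and the 10 cyclins of transcription and other roles from Ccnk (-5.67) to Ccny (-3.05). The 12 other CDKs ran from Cdk12 (-6.03) to Cdk10 and the 6 CDK inhibitors from Cdkn1c to Cdkn2a (-3.29). The 7 CDK-directed kinases, phosphatases and subunits ran from the phosphatase Cdc25b (-5.66) to the inhibitory kinase Pkmyt1 (-4.24). The 11 Rb and E2F genes ran from E2f8 (-6.04) to E2f2 (-3.14), and the 9 genes of cyclin degradation from Cdc20 to Ube2c (-3.30).

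With harringtonine the genes that did not pass were Cdk5 (-0.49), Ube2c (-0.72) and Cdk10. With puromycin they were Cdkn1a (-0.16), E2f2 (-0.59), Cdkn2b (-0.82), Rbl2 (-0.83), Cdk20 (-0.91) and Cdk10. The CDK inhibitors had the list median nearest to 0 with puromycin, -1.27, with 4 of 6 lower, beside 90.1% of all features. Cdkn1a (p21), which blocks the cyclin E and A kinases, was 1 of the 2 that did not pass. These genes were singled out after their values were seen.

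For each member the coding transcript with the nearest 3 log2 fold changes was sought among 9933 transcripts with at least 100 control reads. Ccnd3 lay nearest to Gnl3 (distance 0.04 on the log2 scale), Cdk4 to Sh3bgrl3 (0.05), Ccnd2 to Pole2 (0.05), Cdk1 to Ipo8 (0.06) and Cdk2 to Fkbp11 (0.09). Ccne1 lay nearest to Hnrnpu (0.10), Ccna2 to Pik3c2a (0.11), Ccnd1 to Ggct (0.15) and Cdk6 to Smc4 (0.17). Ccnb1 had the most distant neighbour, Tecr (0.39).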

How the data were processed

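Ribosome profiling (8 libraries) and transcriptome (2 libraries) data of CGR8 cells were used. The authors aligned SOLiD reads to mm10 (GRCm38) with LifeScope, kept unique matches of 26 to 36 nt for footprints, and deposited a normalized signal per region of each transcript, scaled to equal spike-in reads for footprints and between replicates for the transcriptome. Within a library and region the deposited values were whole-number multiples of a single step (100% of them within 0.01 of a whole number), and the recovered reads were tested, although the tests had been planned for counts. edgeR 4.0.16 (quasi-likelihood test, Benjamini-Hochberg adjustment, threshold 0.05) was run in R 4.3.3 on features that reached 10 reads in 2 or more libraries, with the authors' spike-in factors and the 4 footprint groups in one fit, after tests on simulated data. The 5' UTR to coding sequence ratio was tested as an interaction with the library as a block, and footprints against transcriptome reads used library totals. SEs and 95% intervals come from these fits. Fold inhibition is the mean control value divided by the mean value with the drug. One coding transcript stands for each gene. Copies elsewhere in the genome were sought with blastn 2.17.0. Alternatives were DESeq2 1.42.0, limma 3.58.1 on log2 of the value plus 1 (chosen after seeing the data), TMM, exchanged size factors, no filter, a replicate block, fits of the groups compared alone and each library left out. The size factors of the DMDA-PatA and harringtonine libraries were exchanged because it could not be settled whether they are assigned correctly. The members and lists were chosen with earlier results of these data known. All members are described whatever their values, and from each list the genes lowest and highest with DMDA-PatA. The replicates were biological per the study's methods. The read numbers cover counting error only. Other figures were made with Python 3.11.15, numpy 2.4.6, pandas 2.3.3 and matplotlib 3.10.9. Picard 1.38 is named in the submitters' processing notes.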

Additional observations from a re-analysis of the deposited data

Results flagged for a closer look

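The 3' UTR was used in no comparison. On the 3' UTR of Ccnd3 both drug libraries of 2 groups lay above both control libraries, which had 1.18 and 0.906 normalized footprints (mean 1.04 ± 0.193, SD, n = 2). With DMDA-PatA the values were 1.26 and 3.25 (mean 2.25 ± 1.40), from 2 and 4 reads. With harringtonine they were 4.06 and 2.10 (mean 3.08 ± 1.385), from 4 and 3 reads. With so few reads the difference was not tested. The 67-nt 3' UTR of Cdk4, of which 64 nt are coding in Cdk4-201, had 138 and 161 reads in the control. It had 7 and 8 reads with DMDA-PatA, 1 and 2 with harringtonine and 1 and 3 with puromycin. This difference was not tested either.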

How the results depend on the processing

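Over all alternatives, 1578 of the members' log2 changes kept their direction and side of the threshold, 49 no longer passed, 22 newly passed and 41 changed sign. Outside TMM, each member tested was lower on the coding sequence with each drug under every alternative, except Cdk4 with harringtonine without control replicate 1, and Ccnb1 had too few reads for a test without either control library. The shift towards the 5' UTR with DMDA-PatA and harringtonine was called for all 9 members under every alternative run for it. With TMM, whose effect follows from taking out the common change, 2 members were higher with harringtonine, 3 with puromycin, 1 with DMDA-PatA against harringtonine, 2 with harringtonine against puromycin and 4 on the 5' UTR with DMDA-PatA. On coding sequences TMM turned Cdk4 with DMDA-PatA (0.35), Cdk4 (1.51), Cdk2 (0.38) and Ccnd1 (1.35) with harringtonine, Cdk4 (0.84), Cdk2 (0.59) and Ccnd1 (0.72) with puromycin, Ccnd3 (0.18), Cdk6 (1.12) and Ccnd2 (1.03) for DMDA-PatA against harringtonine, and Ccnb1 (0.91), Cdk6 (1.02) and Ccnd2 (0.68) for DMDA-PatA against puromycin. On 5' UTRs it turned Cdk2 (0.34), Cdk6 (0.083) and Ccnd1 (0.21) with DMDA-PatA and Cdk1 (-0.69) and Cdk4 (-0.66) with harringtonine. With exchanged size factors 6 members were lower with harringtonine than with puromycin, Ccnd1 turned there (-0.040), Cdk6 (0.24) and Ccnd2 (0.14) turned for DMDA-PatA against harringtonine, and Cdk1 (-0.22) and Cdk4 (-0.16) turned on the 5' UTR with harringtonine, and the cause was not tested. With single libraries left out, where the lone library of a group is assumed to vary like the others, 0 to 4 members were lower with harringtonine than with puromycin, 0 to 1 lower and 0 to 2 higher on the 5' UTR with DMDA-PatA, and 3 to 6 higher there with harringtonine. The signs that changed were of Cdk6 (-1.03 to 0.85) and Ccnd2 (-0.87 to 0.14) for DMDA-PatA against harringtonine, Cdk4 (-0.20 to 0.67) and Cdk6 (-1.62 to 0.26) for harringtonine against puromycin, 5' UTR Cdk2 (-0.71 to 0.16) and Ccnd1 (-1.19 to 0.29) with DMDA-PatA, Cdk4 (-0.21 to 0.43) and Cdk1 (-0.60 to 0.61) with harringtonine, Cdk4 (-0.35 to 0.35), Cdk2 (-0.43 to 0.18) and Ccne1 (-0.76 to 0.79) with puromycin, and of Ccnd2 (-0.043 to 0.25) in footprints over transcriptome reads.

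Counts over all features also moved. TMM called 2945 coding sequences lower with DMDA-PatA (12414 before), 3749 with harringtonine (11608), 3112 with puromycin (11266), 2248 for DMDA-PatA against harringtonine (6604) and 2393 against puromycin (8423). It called 1760 5' UTRs higher with DMDA-PatA (976), 1411 higher (2333) and 1242 lower (346) with harringtonine, and 127 higher (37) and 156 lower (27) with puromycin. Exchanged factors called 4694 lower for harringtonine against puromycin (1243), 644 5' UTRs lower with harringtonine, and 80 higher and 70 lower with puromycin. Fits of the groups compared alone called 4006 lower for DMDA-PatA against harringtonine, 454 for harringtonine against puromycin, and 82 higher and 103 lower on the 5' UTR with puromycin, where DESeq2 called 24 higher and limma 96 higher and 48 lower. With single libraries left out the ranges were 3943 to 8334 for DMDA-PatA against harringtonine, 274 to 3741 for harringtonine against puromycin, and on 5' UTRs 538 to 979 higher and 1186 to 2124 lower with DMDA-PatA, 1140 to 2615 higher and 165 to 419 lower with harringtonine, and 4 to 83 higher and 4 to 51 lower with puromycin.

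Shared replicate numbers in the labels do not name shared cultures, and the deviations of same-numbered libraries correlated between -0.02 and 0.05 over 12298 transcripts. With a replicate block the test called 14 5' UTRs higher and 15 lower with puromycin. It gave all 10 members lower on the coding sequence with each drug and ended the calls of Ccnd3 for DMDA-PatA against harringtonine (-1.14) and on the 5' UTR with harringtonine (1.22) and of Ccnd1 for the shift with puromycin (0.96), and no other call of a member. Ccnb1 had 2 to 9 and Cdk6 5 to 13 reads in each drug library, and their differences between the drugs have wide intervals.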
